A study of Mus musculus with 26 samples.

Results

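The cells described here were the 6 blastomeres numbered 2, 3, 5, 6, 7 and 8 of 1 mouse embryo at the 8-cell stage (embryo 2 in the labels), each with an RNA and a DNA profile from the same cell. They are all blastomeres of that embryo whose labels give both profiles and that have columns in the tables, and they are 6 of the 13 cells that the labels of the series name and 6 of the 9 with such columns. The embryo came from in vitro fertilisation of C57BL/6 eggs, and its blastomeres were separated by hand and lysed one by one. No treatment or genotype separated the cells, so nothing was compared between groups: the 6 cells are 1 embryo, and every SD given here is a spread between cells, or pairs of cells, of that embryo. Cells 2 and 3 were lysed in a larger volume (the protocol called scRR3) and cells 5, 6, 7 and 8 in a smaller one (scRR1), and the part of this difference in the results was not tested. Which blastomeres were sisters of the last division is not given in the labels. Wherever 6 values stand in a row, they follow the order cells 2, 3, 5, 6, 7 and 8.

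scRR-seq (single-cell replication and RNA sequencing) reads total RNA and the copy number of genomic DNA from 1 cell. During S phase each part of the genome is copied once, in a reproducible order called the replication timing program: gene-rich domains with open chromatin replicate early, and gene-poor domains, often at the nuclear lamina, replicate late. A cell caught in S phase therefore has more DNA over the parts already copied, and the share of its genome in that state places it along S phase. In the mouse embryo compaction and polarisation begin late in the 8-cell stage, and the choice between inner cell mass and trophectoderm follows them.

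The markers of the labelled stage were present in all 6 cells. Pou5f1, the pluripotency factor OCT4, lay at 231, 227, 145, 131, 156 and 117 TPM (each transcript's share of all transcripts, scaled to a fixed total, a level that takes account of transcript length). Tfap2c and Tead4, factors of the early trophectoderm program, lay at 50.3 to 103 and at 43.2 to 111 TPM. Of genes of other cells that could have come along, the 8 sperm and spermatid markers summed to at most 1.62 TPM in any cell. Of the 12 cumulus and granulosa cell markers, 7 were listed at 0 in all 6 cells and only Nr5a2 passed 1 TPM in every cell. The mean log2(TPM + 1) of these 12 was 1.14 in cell 6 and 0.50 to 0.83 in the others, and carry-over into single cells was not tested. Nr5a2, which the embryo itself expresses, lay between 58.8 and 125 TPM. Genes of the preceding 2-cell stage burst were also low, with a summed level of 2.92 to 18.2 TPM over 16 genes. The depth behind these values is unknown, because TPM keeps no read number.

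All 6 cells had copied more than they had left uncopied, and 5 of them lay close together. The replicated share of the 40-kb bins was 77.8, 74.2, 76.9, 62.4, 80.5 and 78.7%. Cell 6 was the least advanced and cell 7 the most, with the other 4 within a few percentage points of cell 7. The 6 cells shared a state in most of the genome: of 50126 bins with a state in every cell, 24418 (48.7%) were replicated in all 6, 4027 (8.03%) were unreplicated in all 6, and the remainder differed between at least 1 pair of cells. For DNA, chromosomes 6, 10, X and Y were not analysed here.

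What the cells had all copied was gene-rich DNA, and what none had copied was nearly empty of active genes. From the bins replicated in no cell to those replicated in all 6, the mean GC content rose at every step, through 37.7, 38.0, 38.4, 39.1, 40.4, 42.6 and 43.9%. The density of protein-coding gene starts went from 1.24 to 12.5 per Mb between the same ends. Each gene was given the state of most of the bins it overlaps. Of the 12198 protein-coding genes replicated in all 6 cells, 4646 (38.1%) had more than 1 TPM in every cell, against 1 of 202 (0.495%) among those replicated in none. Over all protein-coding genes of the RNA table, 32.4% met that rule. The intermediate classes were not evenly graded: genes detected in all 6 cells made up 1.5 to 2.99% of the coding genes replicated in 1, 2 or 3 cells, 16.9% in 4 cells and 32.3% in 5. Olfactory and vomeronasal receptor genes supplied 23.3% of the coding genes that no cell had copied and 4.82% of those that all had copied. Their share was highest, at 35.9%, among the genes copied in 1 cell. By number, 588 receptor genes were copied in all 6 cells and 47 in none. GC content, gene density and detection move together along the genome, so these values describe 1 gradient.

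**Figure D1:**
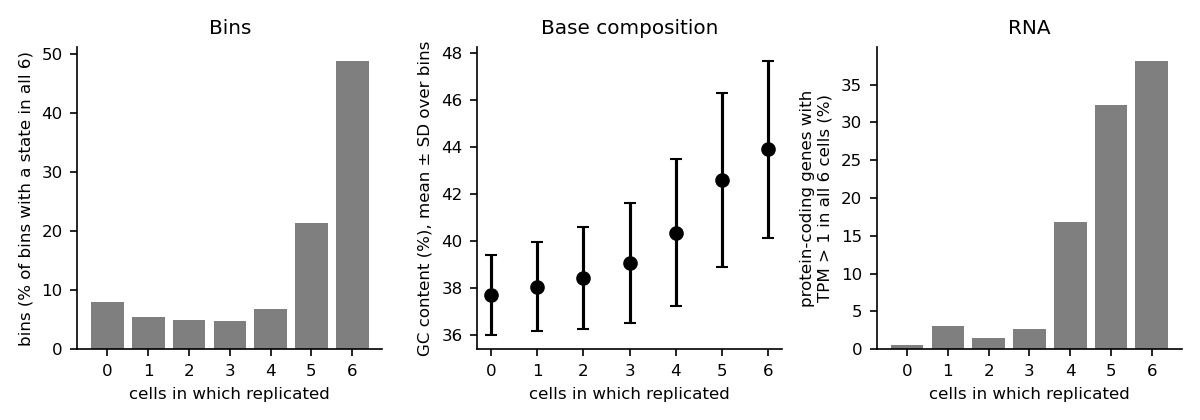
Properties of the 40-kb bins by the number of the 6 cells in which they were replicated (x axis, 0 to 6). The panels show the percentage of the bins in each class, their mean GC content in percent with the SD over bins as error bars, and the percentage of protein-coding genes above 1 TPM in all 6 cells (bars). The GC content goes from 37.7% to 43.9%, and the detected share stays below 3% up to 3 cells and reaches 38.1% at 6.

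The longest stretch copied in every cell lay at chr2:124840001-132480000 (mm10), 7.64 Mb with 120 protein-coding genes, of which 50 were detected in all 6 cells. It holds Pcna, the sliding clamp of the replication fork, and Nop56, a core protein of the small nucleolar particles that modify ribosomal RNA. The next were chr2:32480001-39200000, with 105 coding genes, and chr8:117160001-123560000, with 88 coding genes and a GC content of 49.8%. The longest stretch copied in no cell lay at chr16:65680001-68920000, 3.24 Mb with 2 protein-coding genes: Vgll3, a transcriptional cofactor, and Cadm2, a neuronal adhesion molecule. Vgll3 was listed at 0 in all cells and Cadm2 did not pass 0.07 TPM. It was followed by chr7:93600001-96160000 with no coding gene, and by chr3:123760001-126240000 and chr4:78000001-80480000, both 2.48 Mb long, with 5 and 1 coding genes. Among those 6, Ptprd, a receptor phosphatase of neurons, was listed at 0 in all cells, and Ugt8a, which makes the myelin lipid galactosylceramide, did not pass 2.74 TPM.

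The single coding gene detected in all 6 cells from DNA that none had copied was Pelo, a ribosome rescue factor, at chr13:115088355-115090186 on the minus strand and at 7.14 to 23.6 TPM. It sits within the span of the integrin gene Itga1 (0 to 2.87 TPM) and of the predicted gene Gm49395 on the same strand (0 to 28.2 TPM), and beside the antisense transcript Gm10734, and whether the counting used strand is not given in the sources used here, so its reads are not assigned with certainty. Of the coding genes that none of the cells had copied, 5 had a mean of at least 10 TPM, and the other 4 were predicted genes (Gm10184, Gm9774, Gm49395 and Gm21833), each listed at 0 in at least 1 cell. The promoters of 4 genes are given as examples: Pcna and Mt2 (a metallothionein among the most abundant RNAs of the cells) from DNA copied in all 6 cells, and Pelo and Cadm2 from DNA copied in none. Each is the RefSeq window from 250 bases before the gene start to 50 after it on GRCm38.p6, written 5′ to 3′ on the strand of the gene, with the CG dinucleotides in capitals.
Pcna (chr2:132253131-132253430, minus strand): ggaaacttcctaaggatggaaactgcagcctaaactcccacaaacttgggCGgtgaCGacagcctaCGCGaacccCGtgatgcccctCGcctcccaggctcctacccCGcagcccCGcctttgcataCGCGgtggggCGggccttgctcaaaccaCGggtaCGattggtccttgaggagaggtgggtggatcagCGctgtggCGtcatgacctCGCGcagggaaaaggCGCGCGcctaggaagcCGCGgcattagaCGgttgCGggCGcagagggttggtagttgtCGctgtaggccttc
Mt2 (chr8:94172368-94172667, plus strand): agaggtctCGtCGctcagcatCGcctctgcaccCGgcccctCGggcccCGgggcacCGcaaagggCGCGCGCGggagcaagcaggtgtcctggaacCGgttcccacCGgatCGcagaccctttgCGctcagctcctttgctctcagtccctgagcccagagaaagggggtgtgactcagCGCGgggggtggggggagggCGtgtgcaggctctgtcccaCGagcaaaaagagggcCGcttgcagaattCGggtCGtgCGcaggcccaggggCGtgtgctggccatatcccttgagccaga
Pelo (chr13:115090109-115090408, minus strand): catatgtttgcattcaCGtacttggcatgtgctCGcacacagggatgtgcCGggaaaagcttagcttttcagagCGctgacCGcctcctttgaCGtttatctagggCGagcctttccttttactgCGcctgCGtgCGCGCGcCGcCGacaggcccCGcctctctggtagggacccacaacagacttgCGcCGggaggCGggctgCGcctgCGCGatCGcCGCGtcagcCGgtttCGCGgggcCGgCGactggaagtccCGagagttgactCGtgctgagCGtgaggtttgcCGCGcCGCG
Cadm2 (chr16:67620859-67621158, minus strand): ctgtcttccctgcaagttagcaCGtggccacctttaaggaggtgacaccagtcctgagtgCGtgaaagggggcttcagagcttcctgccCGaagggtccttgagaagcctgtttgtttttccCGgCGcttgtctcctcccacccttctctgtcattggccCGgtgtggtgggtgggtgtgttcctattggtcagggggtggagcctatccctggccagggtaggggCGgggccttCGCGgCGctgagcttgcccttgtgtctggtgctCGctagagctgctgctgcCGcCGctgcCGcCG
These windows hold 26, 24, 36 and 15 CG dinucleotides in the order given. Of the 32851 RefSeq promoter windows of mouse, 94.6% hold the motif CG at least once, 43.5% hold it 10 times or more, and the median is 7. The gene with the most CG of the 4, Pelo, was among the unreplicated ones, so the count of this motif in the window did not follow the replication state in these 4. CG reads the same on both strands, and its presence is a description of the letters only.

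Histone and deoxynucleotide supply genes were nearly all copied in every cell, and few imprinted genes were. Over all protein-coding genes with a state, 70.5% were replicated in all 6 cells. Of the deoxynucleotide supply genes 11 of 12 were, the exception being Dck, a deoxynucleoside salvage kinase. Of the replication-dependent histone genes, most of which sit in large clusters, 44 of 47 were. Of the cytosolic ribosomal protein genes 61 of 74 were, of the fork and origin firing genes 26 of 31, of the MCM helicase and loader genes 10 of 14, of the mitotic genes 21 of 29, of the cyclins, CDKs and regulators 11 of 14, and of the lineage transcription factors 14 of 16, with Sox2 and Esrrb outside. The MCM (71.4%) and mitotic (72.4%) shares were near that of all genes. The shares were lower for p53 targets and apoptosis genes (7 of 15), for 2-cell stage genes (4 of 11) and for imprinted genes (4 of 15). Ndn, an imprinted gene of the Prader-Willi region, was unreplicated in all 6 cells. Members of 1 gene cluster share bins, so these counts are not of independent genes.

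Most of the bins that differed between cells did not follow the order of the cells' scores. The states differed in 21681 bins. With the cells ranked by their replicated share, 41.2% of these kept to the order, so that no cell had copied a bin that a more advanced cell had not, and 6765 of them were bins unreplicated in cell 6 only. The other 58.8% are 25.4% of the 50126 bins. In these, at least 1 less advanced cell had copied a bin that a more advanced one had not. The order rests on small differences in score among the 5 cells other than cell 6. It also depends on single chromosomes: without chromosomes 3 and 11, cell 3 had a higher score than cell 5. The 58.8% therefore describes departures from this ranking, and departure from the replication timing program was not tested. Among pairs that excluded cell 6, the cells had the same state in 86.1% ± 2.0 of the bins (SD over 10 pairs that share cells), where the difference in their scores alone allows 97.1%. In the 5 pairs with cell 6 the agreement was 73.6% ± 0.93, where the scores allow 83.6%. Between 4.02 and 7.18% of the bins of a pair went against the order of the pair's scores.

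**Figure D2:**
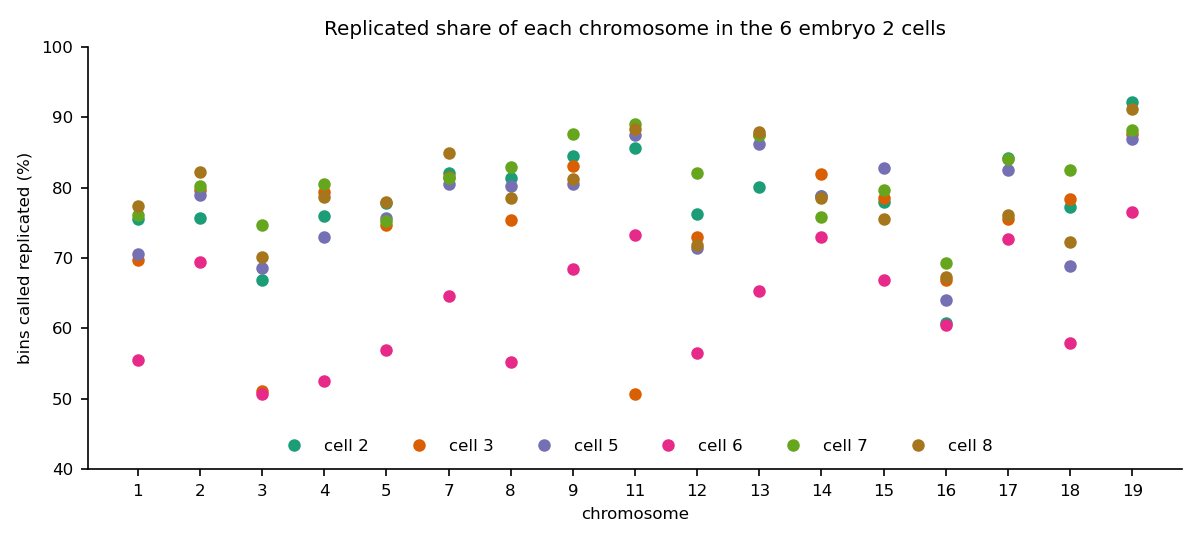
Replicated share of the 40-kb bins (percent, y axis) on each chromosome analysed (x axis), with 1 point for each of the 6 cells. Cell 6 is the lowest point on 16 of the 17 chromosomes, and cell 3 is the lowest on chromosome 11, at 50.7%.

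Cell 6 stood apart from the others in the amount copied and in the texture of its profile. It had the lowest replicated share on 16 of 17 chromosomes, and 6765 bins (13.5% of those with a state in all cells) were unreplicated in cell 6 only, against 539, 1754, 592, 397 and 618 in cells 2, 3, 5, 7 and 8. Its states also switched more often, with 1715 borders between replicated and unreplicated DNA against 831 to 1002 in the other 5. Only 41.5% of its borders lay within 2 bins of a border of another cell, against 63.1 to 69.7% for the borders of the others. Of the genome, 27.4% lay that close to a border of another cell for cell 6 and 33.4 to 34.2% for the others. The bins without a state numbered 1264 in cell 6 and 107 to 181 elsewhere. The part of technical quality in this profile was not tested. The longest uncopied stretch of cell 6, at chr5:21000001-27800000, had a GC content of 43.4% and 67 coding genes, of which 24 were detected in all 6 cells, among them Psmc2, a proteasome ATPase. In cells 2, 5, 7 and 8 the longest uncopied stretch was of another kind, with a GC content of 36.6 to 37.8% and 1 to 3 coding genes, such as Pcdh7, a protocadherin, in cells 2 and 8. The longest stretch uncopied in cell 6 only was chr1:10960001-14120000, with 9 coding genes, including Prdm14, a regulator of pluripotency and germ cells.

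Cell 3 differed on single chromosomes. Its replicated share of chromosome 11 was 50.7%, where the other 5 cells had 73.3 to 89.1%, and its share of chromosome 3 was 51.1%, next to 50.7% in cell 6 and 66.9 to 74.8% in the other 4. Of the 1754 bins called unreplicated in cell 3 alone, 742 were on chromosome 11 and 332 on chromosome 3. One unbroken run of 721 unreplicated bins reached from 11440001 to 40520000 on chromosome 11 (28.84 Mb of bins with a state), while the longest run in any other cell was 6.8 to 7.4 Mb. In the same interval the others had copied 73.8% (cell 2), 79.5% (cell 5), 67.2% (cell 6), 84.8% (cell 7) and 78.2% (cell 8). The interval holds 123 coding genes, of which 42 were detected in all 6 cells, among them Npm1, the nucleolar protein nucleophosmin, Rps27a, a ubiquitin-ribosomal fusion gene, and Xpo1, the main nuclear export receptor. The state is 1 value for both parental chromosomes and is called from copy number. DNA not yet copied and DNA lost from the cell cannot be told apart by it. What sets this interval of cell 3 apart was not tested.

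In cells 2, 5, 7 and 8 the longest stretch uncopied in that cell only covered 0.84 to 1.12 Mb, against 5.04 Mb in cell 3 and 3.16 Mb in cell 6. In cell 2 it was chr2:44040001-44880000, with Gtdc1 and Arhgap15. In cell 7, the most advanced cell, it was a stretch of another kind at chr7:126200001-127280000, with a GC content of 48.2% and 59 coding genes, 33 of them detected in all cells, Ppp4c (a protein phosphatase) and Eif3c (a translation initiation factor) included. In cell 8 it covered 1.12 Mb on chromosome 18.

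Across all genes, the log10(TPM + 1) values of 2 cells correlated with a mean Pearson's r of 0.910 (15 pairs that share cells, and genes that are not independent). Of the 55487 genes in the table, 7702 (13.9%) exceeded 1 TPM in all 6 cells and 4078 exceeded it in 1 cell only. The first were 92.0% protein-coding with a median highest level of 42.8 TPM, and the second were 39.8% protein-coding with a median of 2.14 TPM. The most abundant RNAs of nuclear protein-coding genes were Lars2, a mitochondrial leucyl-tRNA synthetase, and Rpl41, a ribosomal protein, with means of 7743 and 6036 TPM. They were followed by Hspa8, the constitutive HSP70 chaperone, at 7612, 6114, 4996, 4574, 4245 and 3970.4 TPM. Cells 2 and 3 were the highest for Hspa8 and cell 8 the lowest. Mt2, which binds metals, was at 2441, 3858, 4405, 6368, 2677 and 6523 TPM, high in cells 6 and 8 and low in cells 2 and 7. Fbxo15, an F-box gene of pluripotent cells, was highest in cells 7 and 8 (5266 and 5142 TPM) and between 2697 and 3752 in the others. Eloc (elongin C) was at 2669.8 to 4749.9 TPM, and Rplp2, Rplp1 and Rps25, of the ribosome, had means of 3010.4 to 3862 TPM.

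Between-cell spread was judged by the range of log2(TPM + 1) over the 6 cells, in genes with a mean of at least 10 TPM. Of 6699 such genes, 1131 (16.9%) were even, with a range of at most 1, and 1051 (15.7%) were uneven, with a range over 3. The median range was 1.65. Counts of even and uneven genes in the lists below stand beside these shares of all genes and were not tested against them. The most even gene was Psma2, a proteasome core subunit, at 114, 123, 129, 131, 117 and 129 TPM, so that its lowest and highest cells differed by 0.19 in log2. Next came Dcaf12, a substrate receptor of a CUL4 ubiquitin ligase, at 32.3 to 37.2 TPM, and Prc1, the spindle midzone crosslinker, at 220.2 to 257 TPM. Bora, an activator of mitotic kinases, was at 62.6 to 74.2 TPM. Stk4, the Hippo pathway kinase MST1, lay at 31.3 to 37.2 TPM, Psmc4, another proteasome subunit, at 163 to 194 TPM, and Pim1, a survival kinase, at 69.3 to 82.7 TPM. Timm23, the import channel of the inner mitochondrial membrane, was even at a high level, 778 to 937 TPM.

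Genes for translation and for the respiratory chain varied little between cells. Of the 83 cytosolic ribosomal protein genes with a mean of at least 10 TPM, 59 were even and 1 was uneven, and their median range was 0.83, against 1.65 for all genes. Rps7 was at 1769, 1873, 1839.6, 1946, 2264 and 2033 TPM. The uneven member was Rpl5, at 78.95, 60.4, 76.5, 5.31, 60.6 and 117 TPM, low in cell 6 alone. Many ribosomal protein genes have near-identical processed pseudogenes, which can take or lend reads, and a value such as that of Rpl5 is uncertain for this reason. Of the 78 nuclear genes of the respiratory chain, 33 were even and 1 was uneven (median range 1.11). Atp5g1, a subunit of the ATP synthase ring, was at 346 to 445 TPM, and the uneven one, Ndufb4 of complex I, at 18.1, 6.50, 110, 12.2, 30.7 and 30.5 TPM. Spread falls with level, and against the running median SD of genes at the same level the median difference in SD was -0.05 for both lists. It was below 0 in 7 of 18 lists.

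**Figure D3:**
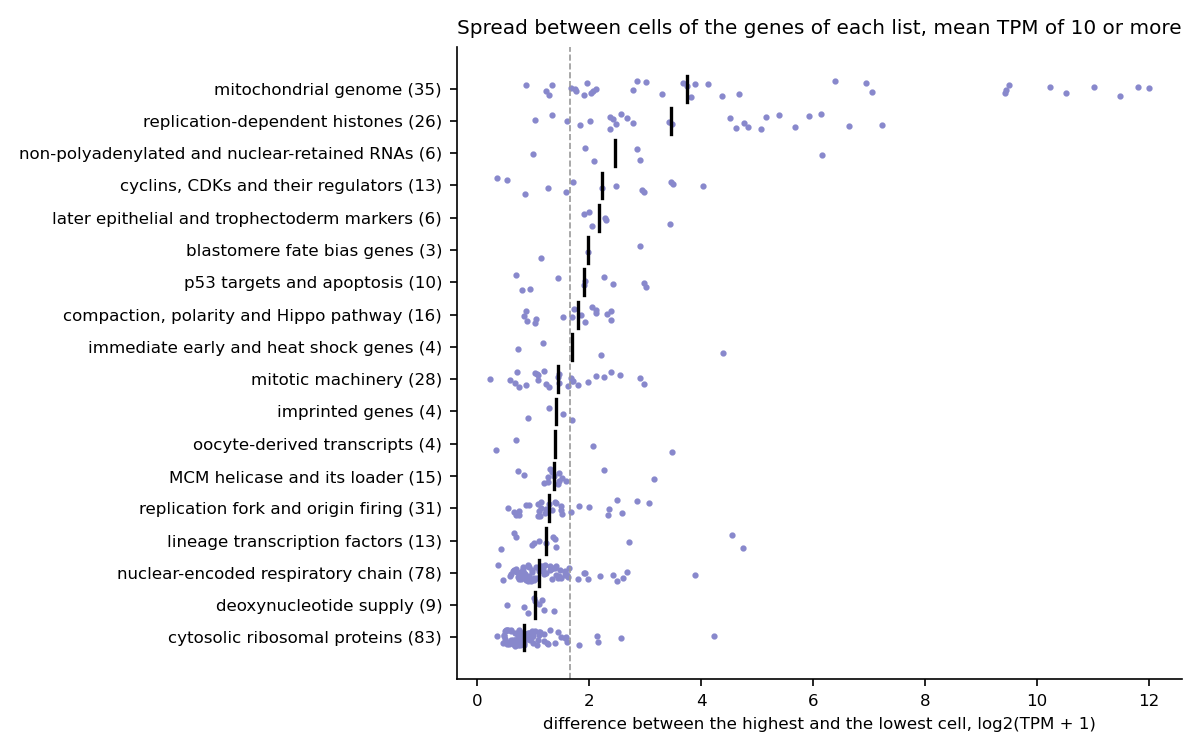
Spread between the 6 cells in each gene list with 3 or more members at a mean of at least 10 TPM (y axis, with the number of members): each point is the range of log2(TPM + 1) of 1 gene (x axis), the black bar is the median of the list, and the dashed line is the median of all genes at 1.65. Ribosomal protein genes have the smallest median of the lists plotted, 0.83, and the mitochondrial genome the largest, 3.75.

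Most genes of the DNA replication machinery were above 1 TPM in every cell, where 32.4% of all protein-coding genes were. All 16 genes of the MCM helicase and its loader exceeded 1 TPM in all 6 cells, and of the 15 at a mean of 10 TPM or more, 2 were even and 1 uneven (median range 1.38). Mcm6, a helicase subunit, lay at 146, 133, 81.3, 90.1, 116 and 119 TPM. Gmnn, the geminin gene whose protein blocks renewed loading of the helicase, lay at 228, 394, 230.5, 163, 282 and 270.1 TPM, highest in cell 3. Orc4, of the origin recognition complex, was the uneven member, at 54.9, 49.4, 195, 447, 247 and 139 TPM: cells 2 and 3 were the lowest and cell 6, the cell with the least DNA copied, the highest. Orc3, of the same complex, was even at 34.0 to 56.7 TPM. Of 36 fork and origin firing genes 33 exceeded 1 TPM in all cells. The exceptions were Recql4, a helicase, at 0.84, 0 and 0.34 TPM in cells 6, 7 and 8, Gins3, of the helicase complex, at 0.27 and 0.48 TPM in cells 5 and 6, and Clspn, the checkpoint mediator claspin, at 0.72 TPM in cell 6. Of the 31 at a mean of 10 TPM or more, 7 were even and 1 was uneven (median range 1.29). Tipin, of the fork protection complex, lay at 235 to 343 TPM, and Pcna at 86.6, 126, 193, 101.4, 100.3 and 112 TPM, with cell 5 above the rest. The uneven one was Prim1, the catalytic primase subunit, at 21.5, 13.6, 22.2, 8.47, 14.1 and 78.6 TPM. None of the 9 deoxynucleotide supply genes was uneven (median range 1.04): Nme2, a nucleoside diphosphate kinase, lay at 1648 to 2944 TPM, Dtymk, thymidylate kinase, at 117 to 171 TPM, and Tyms, thymidylate synthase, at 140 to 361 TPM with its maximum in cell 6.

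The cell cycle regulators held both even and uneven members. Of 13 cyclins, CDKs and regulators at a mean of 10 TPM or more, 3 were even and 3 uneven (median range 2.23), while of 28 mitotic genes 6 were even and none uneven (median range 1.45). Over all genes 16.9% were even and 15.7% uneven. Cdk1, Cdk2 and Cdk4 are among the 13 and lie on chromosome 10, whose RNA was low in cell 6 as described below, and the difference between the lists was not tested. Ccnb1, the main mitotic cyclin, lay at 1018, 967, 589, 338, 512 and 529 TPM, highest in cells 2 and 3 and lowest in cell 6. Ccnb2, the other B-type cyclin, was even at 58.3 to 74.3 TPM, and Ccna2, the S-phase cyclin, at 243 to 351 TPM. Ccnd1, a G1 cyclin, lay at 37.0, 6.31, 6.00, 1.31, 2.99 and 17.6 TPM, and its highest value, in cell 2, was alone in passing 20 TPM. Of the mitotic genes, Cks2, a CDK-binding subunit, ran the other way from Ccnb1, at 572, 639.7, 1267, 1074, 1417 and 1559 TPM, low in cells 2 and 3. The summed level of the cyclin list was 2743, 2950.1, 2347, 1280.2, 1997 and 1834 TPM, with cell 6 below the other cells.

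Histone genes and the mitochondrial genome had the largest median ranges of the lists. Of the 26 replication-dependent histone genes at a mean of 10 TPM or more, which are copied into RNA in S phase and end in a stem-loop in place of a poly(A) tail, 14 were uneven and none even (median range 3.46). Against genes at the same level their median SD was higher by 0.26 in log2, near the 0.22 of the cyclin list. The summed level of all 68 histone genes of the list was 1905, 1739.9, 679, 1547, 1021 and 832 TPM, with cells 2, 3 and 6 above cells 5, 7 and 8. Hist1h2ap, an H2A gene, followed that division at 489.8, 568, 312, 804, 277 and 263 TPM. Hist1h4n, an H4 gene, lay at 54.1 to 112 TPM. Hist2h2aa2 was listed at 0 in cells 6 and 7 and at 20.9 to 149.8 TPM in the others, but it has a near-identical neighbouring copy and is uncertain on its own. The order of the cells in summed histone RNA was not the order of their replicated share: cell 6 was the least copied, and cells 2 and 3 differed from cell 5 by a few percentage points of copied DNA.

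Of the 35 genes of the mitochondrial genome at a mean of 10 TPM or more, 21 were uneven and 1 was even (median range 3.75), and against genes at the same level their median SD was higher by 0.82 in log2. The list holds 37 genes, with ribosomal, messenger and transfer RNAs together, and these classes were not counted apart. The larger ribosomal RNA, mt-Rnr2, lay at 9602, 8814, 21319, 13121, 19840.3 and 20209.5 TPM, with cells 2 and 3 lowest, then cell 6. mt-Nd3, of complex I, was listed at 0 in cells 2 and 6 and at 4120 TPM in cell 8. mt-Nd4l was listed at 0 in cell 6 and at 681 to 1210.2 TPM elsewhere. A gene of every cell, Gapdh of glycolysis, was also listed at 0 in cell 6, beside 312, 187, 166, 278 and 171 TPM in cells 2, 3, 5, 7 and 8, so a 0 in these tables can be an estimate that failed, as Gapdh too has many pseudogene copies. Of 6 non-polyadenylated and nuclear-retained RNAs at a mean of 10 TPM or more, 1 was uneven. Rn7sk, which holds back the elongation factor P-TEFb, lay at 4809, 3669, 1131, 3319, 2322 and 1966 TPM, high in the same cells 2, 3 and 6 as the histone sum. Malat1, a nuclear-retained transcript, lay at 135.0 to 272 TPM with cell 6 highest.

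Of 18 lineage transcription factors 13 exceeded 1 TPM in all 6 cells (72.2%), where 32.4% of all protein-coding genes did. Some of the named factors divided cells 2 and 3 from the rest. Of the 13 at a mean of 10 TPM or more, 4 were even and 2 uneven (median range 1.23). Klf4 was even at 26.8 to 36.1 TPM. Klf5, which acts in both early lineages, lay at 141, 178, 284, 275.0, 331 and 215 TPM. Klf17 was uneven at 71.8, 35.9, 1.72, 9.13, 15.6 and 8.07 TPM, with cells 2 and 3 highest. Pou5f1, with the values given above, was likewise highest in cells 2 and 3, and Klf5 was lowest there. The share of all genes that divide the cells in this way was not counted, and the same division is that of the lysis volume. It is therefore not read as a trait of lineage factors. Of the 7 genes that have been linked to fate bias between early blastomeres, 3 had a mean of 10 TPM, none of them even or uneven: Cdk2ap1 lay at 724 to 1594 TPM, and Neat1, a paraspeckle RNA, at 9.44, 3.29, 5.00, 23.4, 29.9 and 3.10 TPM. Of 16 genes of compaction, polarity and the Hippo pathway, 3 were even and none uneven. Ctnnb1 (beta-catenin) lay at 174 to 318 TPM, Ctnna1 (alpha-catenin) at 40.5 to 73.0 TPM, and Pard6b, of the apical PAR complex, at 18.3, 13.4, 19.4, 5.69, 34.2 and 7.48 TPM. Of 15 later epithelial genes 8 exceeded 1 TPM in all 6 cells (53.3%, beside the same 32.4%). Cldn7, a claudin, lay at 262, 183, 88.1, 83.0, 347 and 285 TPM and Aqp3, a water channel, at 51.3, 24.3, 8.25, 3.83, 36.2 and 13.3 TPM, both lowest in cell 6 and next lowest in cell 5.

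Among single nuclear genes with a mean of at least 30 TPM, the most uneven after Gapdh had no level in common to the 6 cells. Ulk4, a kinase-related gene of cilia, lay at 1.43, 0.95, 123, 46.7, 358 and 189.6 TPM: nearly absent from cells 2 and 3 and high in cells 7 and 8. Fabp3, a fatty acid binding protein, showed the opposite, at 82.9, 106, 0, 3.11, 8.68 and 4.81 TPM. Fam166a was listed at 0 in cell 5 and lay at 26.2 to 187 TPM in the others, without a division between cells 2 and 3 and the rest. Mael, of the piRNA pathway, lay at 4.11, 0.87, 59.9, 44.7, 96.4 and 6.57 TPM, and Phykpl, a lyase, at 6.67, 9.28, 2.50, 49.9, 75.9 and 232 TPM. Cells 2 and 3 were low for all 3 of Ulk4, Mael and Phykpl, with cell 8 also low for Mael and cell 5 the lowest for Phykpl.

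Some of the RNAs that the egg supplies were present, and whether they were carried over or newly made was not tested. Khdc3, of the subcortical maternal complex, lay at 444, 458, 416, 525, 428 and 446 TPM, and Dppa3, which protects maternal methylation, at 1138 to 1836 TPM. Of 20 oocyte-derived transcripts 11 exceeded 1 TPM in all 6 cells (55%), and of the 4 with a mean of at least 10 TPM 2 were even and 1, Zp3 of the egg coat, was uneven at 3.18 to 45.6 TPM. Of 14 immediate early and heat shock genes, 4 were above 1 TPM in all cells (28.6%, where all protein-coding genes had 32.4%). Hsph1, an HSP110 chaperone, lay at 117, 128, 166, 212, 114 and 94.0 TPM, with cell 6 highest, and Hspa1b, an inducible HSP70, at 25.1, 7.24, 4.12, 0.95, 40.1 and 20.1 TPM, with cell 6 lowest. Of the p53 targets and apoptosis genes, Mcl1 lay at 120 to 193 TPM and Bcl2l11, its opponent BIM, at 2.23 TPM in cell 6 and 8.10 to 25.1 TPM in the others. Of 20 imprinted genes 5 were above 1 TPM in all cells (25%), Igf2r and Snrpn among them, at 51.2 to 169 and 49.0 to 92.1 TPM.

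RNAs found in 1 cell and no other were few among coding genes. A gene was counted as private where it was at 10 TPM or more in 1 cell and at 1 TPM or less in each other, and as missing where it was at 1 TPM or less in 1 cell and at 10 TPM or more in each other. There were 381 private genes, 48 of them protein-coding: 110 in cell 2 and 46 to 62 in the other cells. Sfmbt2, a Polycomb-related gene, was at 83.6 TPM in cell 2 and at most 0.55 TPM elsewhere. Ddit3, the stress factor CHOP, was at 22.8 TPM in cell 3 and listed at 0 in the other 5. Dnajb4, a co-chaperone, was at 26.4 TPM in cell 6 and at most 0.57 TPM elsewhere. Missing genes numbered 75, with 20 and 19 in cells 6 and 8 and 3 to 13 in the others. Pam16, of the mitochondrial import motor, was listed at 0 in cell 2 against 23.98 to 87.1 TPM elsewhere, and Cphx1, a homeobox gene of early embryos, was listed at 0 in cell 7 against 13.8 to 70 TPM. Ankrd12, an ankyrin repeat protein, was at 0.99 TPM in cell 5 and 10.6 to 31.4 TPM in the others.

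Chromosome 10 set cells 5 and 6 apart in RNA. For each gene with a mean of at least 10 TPM, the deviation of a cell was its log2(TPM + 1) minus the median of the other 5 cells, and the median over the genes of a chromosome was then set against that cell's median over all chromosomes. For the 314 genes of chromosome 10 the deviation was -0.02, 0.05, 0.41, -0.62, -0.07 and -0.01. Cell 6 was low and cell 5 high there, while the other 4 cells lay near 0. On every other nuclear chromosome cell 6 lay between -0.10 and 0.15, and cell 5 between -0.15 and 0.19. Of the 314 genes, 172 (54.8%) were lowest in cell 6, where 26.1% of all 6649 nuclear genes tested and 24.7% of those on other chromosomes were. The next highest share was 32.3%, on chromosome 18. Of the same genes 90 (28.7%) were highest in cell 5, against 13.7% of all genes. Both held for 62 genes (19.7%), against 4.14% of all genes and 3.36% of those on other chromosomes. Each cell is measured against the others, so a low cell raises them: without cell 6, cell 5 was at 0.32. Counting only protein-coding genes, only genes with a mean of at least 30 TPM, or subtracting the median of genes in the same tertile of transcript GC content or length, left the difference from the other chromosomes at 0.35 to 0.52 for cell 5 and at -0.62 to -0.74 for cell 6. These alternatives were chosen after seeing the data.

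**Figure D4:**
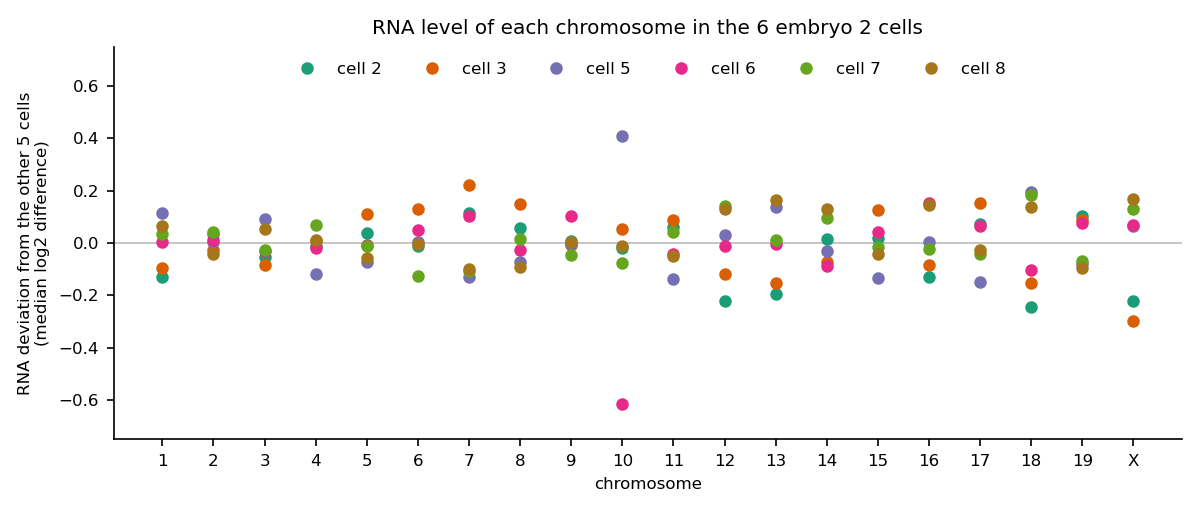
Median deviation of log2(TPM + 1) of a cell from the other 5 cells (y axis) over the genes of each nuclear chromosome (x axis), with 1 point for each of the 6 cells. On chromosome 10 cell 6 lies at -0.62 and cell 5 at 0.41; on the other chromosomes these cells stay between -0.15 and 0.19.

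In cell 6 the shift was seen from 40 Mb of chromosome 10 onwards, while cell 5 had no such clear start. In windows of 20 Mb the median of cell 6 was -0.18 and -0.02 in the first 40 Mb and -0.44 to -0.89 after that, where windows of other chromosomes lay between -0.39 and 0.42. For cell 5 it was 0.17 and 0.05 in the first 40 Mb and 0.15 to 0.78 after that, where windows of other chromosomes lay between -0.44 and 0.64, so 2 of its windows lay above all windows of other chromosomes. The last window of cell 5, from 120 Mb, was the one at 0.15, below its first. Slc25a3, the mitochondrial phosphate carrier, lay at 1128, 1031, 1638, 636, 1579 and 1159 TPM. Metap2, which removes the first methionine of new proteins, lay at 489.6, 495, 1193, 318, 741 and 729.96 TPM. Both were lowest in cell 6 and highest in cell 5. Cdk1, the mitotic kinase and partner of Ccnb1, lay at 458, 882, 872, 268, 519 and 422 TPM, lowest in cell 6 and high in cells 3 and 5. Cdk2, the S-phase kinase, lay at 53.6, 104, 73.8, 17.7, 39.1 and 43.3 TPM, and Cdk4, the G1 kinase, at 340.4, 286, 176, 71.8, 203 and 104 TPM. All 3 kinases are on chromosome 10, and all 3 were lowest in cell 6. The same held for 10 of the 17 genes of chromosome 10 that belong to a list used here and have a mean of at least 10 TPM, including Prim1 and Timeless of the replication fork and Mdm2, the brake on p53. The other 7 were Rpl41, Rps12 and Rps26 of the ribosome, Atp5d, Ndufs7 and Uqcr11 of the respiratory chain, and Tle6 of the subcortical maternal complex. Rps12 was highest in cell 6, at 2835 TPM beside 1800.04 to 2824 TPM in the others. Of the 20 genes missing from cell 6, 1 (Zup1) was on this chromosome. DNA of chromosome 10 was not analysed here, so the replication state of these genes in these cells is not known.

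**Figure D5:**
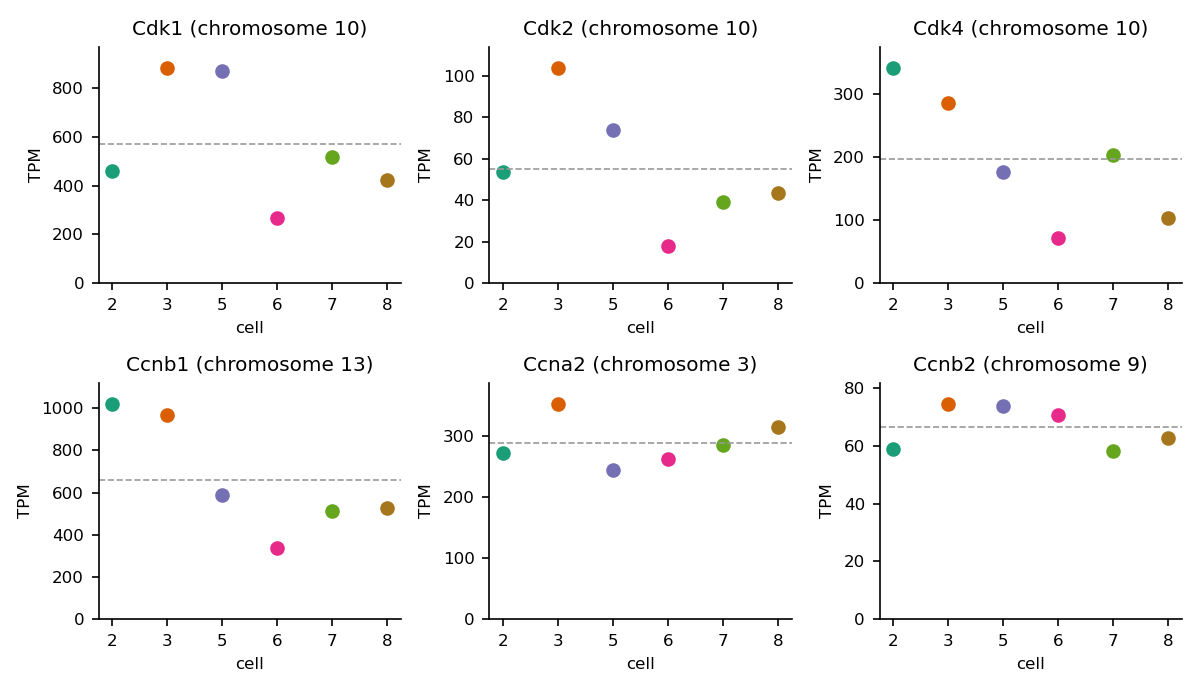
TPM (y axis, from 0) of 6 cell cycle genes in each of the 6 cells (x axis), with 1 panel per gene and the mean over the cells as a dashed line. Cdk1, Cdk2 and Cdk4, on chromosome 10, are lowest in cell 6, as is Ccnb1 on chromosome 13, while Ccna2 and Ccnb2 vary little.

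Base composition of the transcript set cells 2 and 3 apart. In the tertile of genes with the lowest transcript GC content (2217 genes) the median deviation was -0.30, -0.36, 0.31, -0.07, 0.21 and 0.20. In the tertile with the highest it was 0.28, 0.30, -0.27, 0.03, -0.11 and -0.22. Cells 2 and 3 thus held relatively less RNA from AT-rich transcripts and cells 5, 7 and 8 more, with cell 6 between them. This divides the cells nearly as the lysis volume does, and its part in the other differences of cells 2 and 3, such as those of Klf17, Ccnb1, Cks2 and Orc4, was not tested.

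Genes with several transcripts often used another one from cell to cell. In the 3696 genes with at least 10 TPM in every cell and more than 1 annotated transcript, the dominant transcript was the same in all 6 cells in 1754 (47.5%). The dominant transcript took a median of 75.9% of the TPM of its gene. In 1302 genes 2 transcripts were dominant in different cells, and cells 2 and 3, the pair lysed by scRR3, made up the minority together in 103 of them, against 11 to 42 for each of the other 14 pairs. Rps7 was 1 of these: its protein-coding transcript Rps7-203 led in cells 2 and 3 (48.5 and 45.2% of the gene), and the retained-intron transcript Rps7-205 led in cells 5 to 8, with 60.9 to 77.8%. Rpl7 changed in the same way, from the coding Rpl7-205 in cells 2 and 3 to the processed transcript Rpl7-203, at 51.0, 49.9, 66.1 and 72.2% in cells 5, 6, 7 and 8. Other genes set 1 cell apart: Rps24-202 held 68.1% of its gene in cell 6 and 19.2 to 30.6% elsewhere, and Rps15a-201 held 67.6% in cell 7 and 27.0 to 46.8% elsewhere. Fbxo15-205 passed Fbxo15-201 in cells 7 and 8 only, at 46.9 and 61.3% of the gene. Over all genes, retained-intron transcripts took 6.15% ± 0.31 of the TPM of a cell (SD, n = 6). Shares between transcripts of 1 gene are estimates from reads that several transcripts share, and the part of the lysis protocol in them was not tested.

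RNA and DNA were then read in the same cells. The share of a cell's RNA that came from genes in bins it had not yet copied was 3.44, 5.46, 3.08, 15.7, 2.45 and 3.71% of the TPM of genes with a state. Cell 6 was the highest and had the most uncopied coding genes, 21.6% of them against 4.86 to 9.08% in the other cells. The RNA share was below the gene share in every cell, but it takes in genes of every type, while the gene share counts coding genes only. Over coding genes alone the mean RNA share of the 6 cells was 3.87%, against 5.63% over genes of every type. Over the 719 genes with a mean of at least 10 TPM that cell 6 alone had not copied, the median deviation of cell 6 was -0.01, beside -0.03 in the 3766 genes copied in all cells. For the 142 genes called unreplicated in cell 3 alone, the median deviation of cell 3 was -0.12, beside 0.04 in the genes copied in all. The other cells had few such genes: the median deviation was -0.74 in cell 2 (10 genes), -0.04 in cell 5 (29 genes), 0.18 in cell 7 (28 genes) and -0.14 in cell 8 (44 genes). No direction was common to the 6 cells. In the chromosome 11 interval, the 38 genes with a mean of at least 10 TPM had a median deviation of -0.32 in cell 3 and of 0.06 to 0.22 in cells 5 to 8. Cell 2, which had copied most of that interval, was lower still, at -0.44. Npm1, the most abundant of these genes, lay at 2301, 2051, 2611, 3366, 3912 and 2736 TPM, with cells 3 and 2 lowest. Rtn4, which shapes the endoplasmic reticulum, lay at 417, 392, 1099.5, 760.3, 1736 and 958 TPM, again with cells 3 and 2 lowest. Rps27a did not follow, at 2283, 2504, 1702, 2839, 2010.4 and 2812 TPM, lowest in cell 5. The lowest of the 6 cells was cell 3 for 8 of those 38 genes (21.1%), where 13.2% of all nuclear genes were lowest in cell 3. Cell 2 was lowest for 7 (18.4%, against 10.6% of all), cell 5 for 8 (21.1%, against 18.6%) and cell 6 for 11 (28.9%, against 26.1%). Cells 7 and 8 were lowest for 2 each.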

How the data were processed

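Total RNA and genomic DNA of single blastomeres were sequenced by scRR-seq. The deposited RNA tables hold TPM per gene and per transcript, which the authors estimated with RSEM on mm10 and the GENCODE annotation. The deposited DNA table holds a score per 40-kb bin and cell (1 replicated, -1 unreplicated, 0 no data), which the authors made by aligning reads with BWA (0.7.17-r1188) and binarizing copy number with AneuFinder. Neither kind of file keeps a read number, so depth and counting error are unknown. RNA columns all carry 1 shared name and were tied to cells by the closing number of the sample titles, and 14 columns per table of no sample in the series were not used. Gene names and coordinates came from GENCODE vM21 (mm10), which held 55141 of 55487 gene identifiers. Promoter sequences came from RefSeq.

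Values were described with Python 3.11.15, pandas 2.3.3 and numpy 2.4.6, on the log2(TPM + 1) scale, which understates differences of low genes, with a minimum mean of 10 TPM for spread and 1 TPM for detection. Scripts were tested on simulated data. A single embryo allows no test between groups, and no p-value is given. The cells, gene lists and measures were chosen with earlier results of these data known. The genes named were the highest, most even, most uneven (at a mean of 30 TPM), private and missing protein-coding ones by rank, the highest, the most even and the most uneven member of each list, and the leading genes of the longest regions and transcripts. Mcm6, Pcna, Ccna2, the genes of chromosome 10 and those of the chromosome 11 interval were chosen after their values were seen, as was the limit to nuclear genes among the most uneven. One region of cell 5 is not reported here.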

Additional observations from a re-analysis of the deposited data

Results flagged for a closer look

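In 17 of 71 measures 1 of the 6 cells lay farther from its nearest neighbour than Dixon's 95% critical value for the gap as a share of the range allows, where chance gives about 1 in 20. The measures overlap and 15 of the 17 concern cell 6. In cell 6 these were its replicated share of all bins (62.4%), its 1264 bins without a state, its 1715 borders, the 41.5% of these borders that lay within 2 bins of a border of another cell, the 15.7% of its RNA that came from genes it had not copied, and the 21.6% of coding genes it had not copied. They also took in its replicated share of chromosome 1 (55.5%), chromosome 4 (52.6%), chromosome 5 (56.9%), chromosome 7 (64.6%), chromosome 8 (55.3%), chromosome 9 (68.5%), chromosome 13 (65.4%) and chromosome 19 (76.6%), and its RNA deviation on chromosome 9 (0.10 in log2). Cell 2 was set apart by its 110 private genes, and cell 3 by its longest unreplicated run, 28.84 Mb. The chromosome 10 RNA of cells 5 and 6 did not pass this rule, since 2 cells lay away from the others on opposite sides.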

How the results depend on the processing

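Of 203 alternative values, 183 differed from the reported one by less than the spread between cells or by less than 1.5 times for a count, 19 moved further and 1 turned its sign. For a mean over the 6 cells, leaving out 1 cell cannot move the mean by as much as that spread. Those values were therefore bound to fall among the 183 and say nothing of stability. The mean correlation of RNA between cells (0.910) was 0.880 with a pseudocount of 0.1, 0.808 over genes with a mean above 1 TPM and 0.803 as Spearman's rank correlation. The 1131 even genes became 2107 with a pseudocount of 10, 2306 with only cells 5 to 8, and 1428 to 1698 when 1 cell was left out, with the highest count without cell 6. The 1051 uneven genes became 327 with a pseudocount of 10, 332 at a mean of 30 TPM or more and 519 among coding genes. Private genes (381) numbered 124 at 30 TPM and 48 among coding genes, and missing genes (75) numbered 126 with only cells 5 to 8, 30 at 30 TPM and 23 among coding genes. The gene lists that varied less than genes of the same level numbered 7 of 18, and 6 to 11 when 1 cell was left out, with 11 without cell 7. The retained-intron share (6.15%) was 6.97% without genes of the mitochondrial genome. Bins out of order (25.4% of all bins) were 14.8% with only cells 5 to 8. The largest deviation of 1 chromosome in replicated share (-36.8 percentage points, chromosome 11 of cell 3) was -26.1 with only cells 5 to 8 (chromosome 4 of cell 6) and -37.2 to -25.5 when 1 cell was left out, the last without cell 3 (chromosome 8 of cell 6). The largest deviation of 1 chromosome in RNA (-0.62, chromosome 10 of cell 6) was -0.73 to 0.32 when 1 cell was left out: without cell 6 it passed to chromosome 10 of cell 5, at 0.324. Without cell 6, the mean share of RNA from uncopied genes fell from 5.63 to 3.63%. The causes of these changes were not tested beyond the fewer genes or cells that each alternative uses. No paired analysis was possible because the 6 cells form 1 group and no groups were compared.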

Other observations

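Chromosome 10 was also the place where RNA differed most between the cells of the other embryo of the series (embryo 1), for which 3 cells have RNA columns. Measured within those 3 cells over 299 genes, the median deviation on chromosome 10 was 0.32 in cell 1, -0.74 in cell 6 and 0.46 in cell 7, where the other chromosomes lay between -0.26 and 0.35, between -0.31 and 0.39, and between -0.35 and 0.13. With 3 cells each value rests on the other 2, and no test was made.

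Transcript length gave smaller differences between the 6 cells of embryo 2 than base composition did. In the tertile of genes with the longest transcripts the median deviation was 0.07, -0.07, 0.03, -0.20, 0.12 and 0.04 in cells 2, 3, 5, 6, 7 and 8, and in the tertile with the shortest it was -0.09, 0.15, -0.06, 0.21, -0.11 and 0.03.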
